A study of Mus musculus with 18 samples.

Results

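Trim28, Setdb1, Kdm1a, Dnmt1, Uhrf1, Dnmt3a, Dnmt3b, Dnmt3l, Tet1 and Tet2 are 10 regulators that silence genes and retroelements of the early embryo or that write, copy or oxidise DNA methylation. Every probe carrying one of these symbols in the platform annotation was taken, whatever its values, and that gave 14 of the 45281 probes on the array, for 9 of the 10 genes. The annotation used here listed no probe for Tet2, which was not analysed. Of the 14 probes, 10 passed the filter on detection, which left 8 genes to test.

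The cells were CGR8 embryonic stem cells, from mice of strain 129P2/Ola. All groups came from stable lines with an integrated siRNA that tetracycline (Tc) switches on, and were cultured for 3 days with or without Tc. The groups were Ncl-1 +Tc and Ncl-2 +Tc, in which an siRNA against nucleolin (Ncl) was induced, each with its uninduced counterpart, Ncl-1 -Tc and Ncl-2 -Tc, and a control line whose siRNA targets EGFP, which mouse cells lack, as EGFP +Tc and EGFP -Tc. Each of the 6 groups had 3 arrays, 18 in all, read as 1 fluorescence colour on Illumina Mouse-6 version 2 BeadChips. Nothing in the labels states that the 3 replicates were cultured separately, so every p-value below reflects a spread between arrays that may be technical.

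Nucleolin is an abundant RNA-binding protein of the nucleolus. In mouse embryonic stem cells it is known to work with Trim28 and LINE1 RNA in keeping the Dux gene and the two-cell-stage programme silent, which is the reason to look at these regulators where nucleolin is depleted. Trim28 is the scaffold recruited by KRAB zinc finger proteins, Setdb1 the histone H3 lysine 9 methyltransferase it brings along, and Kdm1a a demethylase of histone H3 lysine 4. Dnmt3a and Dnmt3b set new DNA methylation with the help of the inactive relative Dnmt3l, Dnmt1 and its partner Uhrf1 copy it after replication, and Tet1 and Tet2 oxidise it.

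Values below are log2 signals after background correction and quantile normalization, and changes are differences of log2 means ± the standard error (SE) of the fit, with 3 arrays per group. A gene was called where the adjusted p of limma was below 0.05. The targeted transcript checked the labels. Ncl (Entrez Gene 17975) had log2 signals of 7.10, 6.48 and 7.52 on the Ncl-1 +Tc arrays, against 11.22, 11.80 and 12.10 on the Ncl-1 -Tc arrays. It had 7.12, 6.42 and 7.43 on the Ncl-2 +Tc arrays, against 10.93, 11.39 and 11.77 on the Ncl-2 -Tc arrays. The changes were -4.67 ± 0.36 (limma adjusted p = 3.73e-06) and -4.37 ± 0.36 (adjusted p = 6.45e-06), which left 3.92% and 4.83% of the signal, and the Ncl difference was 0.07 ± 0.36 in the EGFP line. The 6 arrays of replicate 3 stood apart from the others in brightness, with mean raw intensities between 625 and 837 against at most 596 on the other 12 arrays. Same-numbered arrays of different groups deviated together from their group means in all 45 pairs, so a second fit takes the replicate number as a block. It is given for the regulators wherever it changes a call, and for some comparisons of the other genes.

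None of the 8 tested regulators was called in any comparison of the plain fit. In the Ncl-1 line 0 of 8 were called with Tc, where 7.04% of all 10557 genes were called, and 0 of 8 had an unadjusted p below 0.05. In the Ncl-2 line 0 of 8 were called against a background of 7.95%, and 1, Trim28, had an unadjusted p below 0.05. In the EGFP line 0 of 8 were called, against 0% of all genes. For the average nucleolin response (the mean of the Ncl-1 and Ncl-2 changes) after subtraction of the EGFP change, 0 of 8 were called against 2.76% of all genes. The median change of the 8 genes was -0.25 in the Ncl-1 line, -0.10 in the Ncl-2 line and -0.06 in the EGFP line, beside medians over all genes of -0.04, -0.05 and -0.00. With the replicate block 1 of the 8, Uhrf1, was called, as lower, in each nucleolin line, and 0 of 8 in the EGFP line. The block also raised the background, to 11.5% of all genes called lower in the Ncl-1 line and 12.4% in the Ncl-2 line, so a single gene of 8 is close to that share in both lines.

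**Figure D1:**
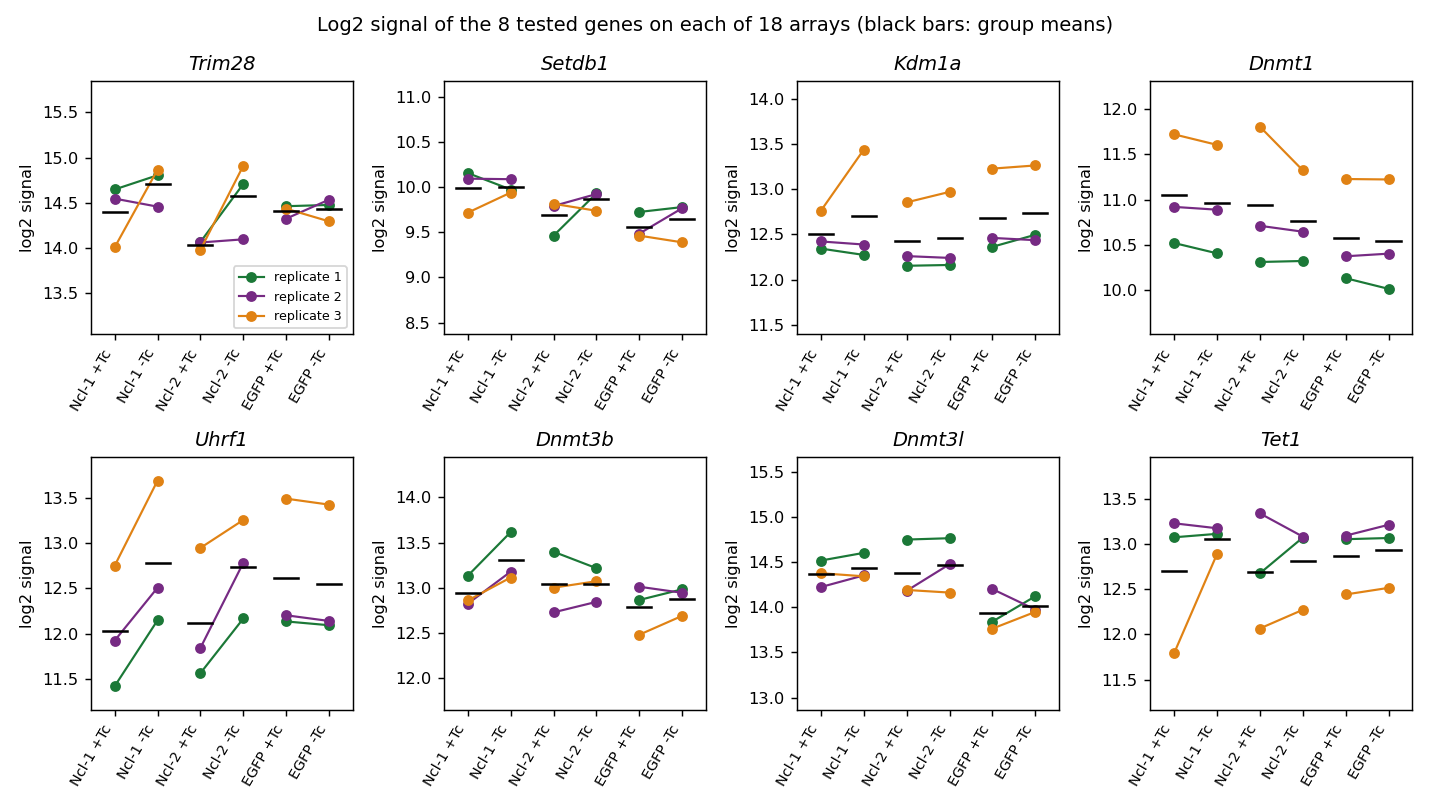
Log2 signal (y axis) of the 8 tested genes on each of the 18 arrays, by group (x axis), with each panel spanning 2.8 log2 units. Lines join the +Tc and -Tc arrays of 1 replicate number in 1 cell line, colours give the replicate number and black bars the group means. The Uhrf1 lines slope the same way in all 6 pairs of the nucleolin lines, while replicate 3 lies above the other replicates in every group.

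Uhrf1 (Entrez Gene 18140), the protein that finds hemimethylated DNA behind the replication fork and brings Dnmt1 to it, was the regulator with the largest difference in both nucleolin lines. Its log2 signals were 11.42, 11.92 and 12.75 on the Ncl-1 +Tc arrays of replicates 1, 2 and 3, against 12.15, 12.51 and 13.69 on the Ncl-1 -Tc arrays. They were 11.56, 11.84 and 12.95 in Ncl-2 +Tc cells, against 12.17, 12.78 and 13.26 in Ncl-2 -Tc cells. In the EGFP line they were 12.13, 12.20 and 13.49 with Tc, against 12.09, 12.14 and 13.42 without it. The groups overlapped in all 3 lines, and replicate 3 lay 0.78 to 1.36 above the mean of replicates 1 and 2 in each of the 6 groups. Within a replicate number the +Tc array was the lower one in 6 of 6 pairs of the nucleolin lines, with differences of -0.73, -0.59 and -0.94 in the Ncl-1 line and -0.60, -0.94 and -0.31 in the Ncl-2 line. Of all genes, 21.3% were lower in all 6 pairs. The EGFP pairs differed by 0.04, 0.06 and 0.07. In bulk RNA, fewer cells with a transcript and less transcript per cell cannot be told apart.

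Within the error of the plain fit, the Ncl-1 change of Uhrf1 was -0.75 ± 0.54 (limma adjusted p = 0.583) and the Ncl-2 change -0.62 ± 0.54 (adjusted p = 0.688). With the replicate block the same changes had an SE of 0.17. The 95% interval was -1.11 to -0.39 for Ncl-1 cells (limma adjusted p = 0.00437 with the block), where the signal was 59.4% of the uninduced one. It was -0.98 to -0.26 for Ncl-2 cells (adjusted p = 0.0136 with the block), at 65.1% of the uninduced signal. In the EGFP line the Uhrf1 difference was 0.06, with a blocked interval of -0.30 to 0.41. The nucleolin response minus the EGFP response was -0.74 ± 0.67 (adjusted p = 0.897), and with the block -0.74 ± 0.21 (adjusted p = 0.0274), where 5.07% of all genes were called lower. The blocked call in the Ncl-1 line held without each of the 18 arrays in turn. That in the Ncl-2 line was lost without Ncl-2 -Tc replicate 2, where the change was -0.45 (adjusted p = 0.0954). The blocked difference from the EGFP line was no longer called without EGFP -Tc replicate 2 (adjusted p = 0.0995), EGFP +Tc replicate 1 (0.0814) or EGFP +Tc replicate 3 (0.0861), or without replicate 3 of all groups (0.0705). A second Uhrf1 probe was detected on 6 of 18 arrays and on no complete group, and was not tested.

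The promoters of the maintenance pair are shown because Uhrf1 and Dnmt1 act together and are both known as genes of replicating cells, and because they were the only 2 of the 10 regulators with a match to the E2F letters searched. E2F factors drive genes of the G1 to S transition. The letters TTTCGCGC or TTTGGCGC were searched on both strands of the 250 bases before each start site in RefSeq promoters of build GRCm38.p6, and 0.759% of 27025 genes had a match. The Uhrf1 sequence is chr17:56304063-56304312 on the + strand, with the match beginning 185 bases before the start. The Dnmt1 sequence is chr9:20952624-20952873 on the - strand, with the match, on the opposite strand, beginning 219 bases before the start. Capitals mark the match, both sequences run 5′ to 3′, and the other listed start sites of these genes, 1 for Uhrf1 and 2 for Dnmt1, held no match.
Uhrf1: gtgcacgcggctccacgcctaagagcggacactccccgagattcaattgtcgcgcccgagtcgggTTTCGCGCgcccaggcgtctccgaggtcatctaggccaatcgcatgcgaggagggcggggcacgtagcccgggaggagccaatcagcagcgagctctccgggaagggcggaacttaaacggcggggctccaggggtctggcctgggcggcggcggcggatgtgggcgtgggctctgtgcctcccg
Dnmt1: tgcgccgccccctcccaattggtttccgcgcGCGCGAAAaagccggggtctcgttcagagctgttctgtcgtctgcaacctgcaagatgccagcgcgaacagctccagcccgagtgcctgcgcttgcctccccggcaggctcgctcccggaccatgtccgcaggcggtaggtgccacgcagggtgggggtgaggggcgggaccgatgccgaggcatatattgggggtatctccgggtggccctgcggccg

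Dnmt1 (Entrez Gene 13433), the maintenance methyltransferase, had differences of the other sign from those of Uhrf1, all within their error. Its log2 signals were 10.52, 10.92 and 11.72 in Ncl-1 +Tc cells, against 10.41, 10.89 and 11.60 in Ncl-1 -Tc cells. In the Ncl-2 line they were 10.31, 10.71 and 11.81 with Tc, against 10.32, 10.64 and 11.32 without it. The +Tc array was the higher one in 5 of 6 pairs, by at most 0.48. The changes were 0.09 ± 0.48 and 0.18 ± 0.48 (limma adjusted p = 0.973 and 0.951), and 0.03 in the EGFP line. With the block the intervals were -0.21 to 0.39 in the Ncl-1 line and -0.12 to 0.48 in the Ncl-2 line. Both lie above the interval of Uhrf1 in the same line, while the difference between the changes of these genes was not tested. Replicate 3 lay 0.84 to 1.30 above the other replicates in each of the 6 groups.

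**Figure D2:**
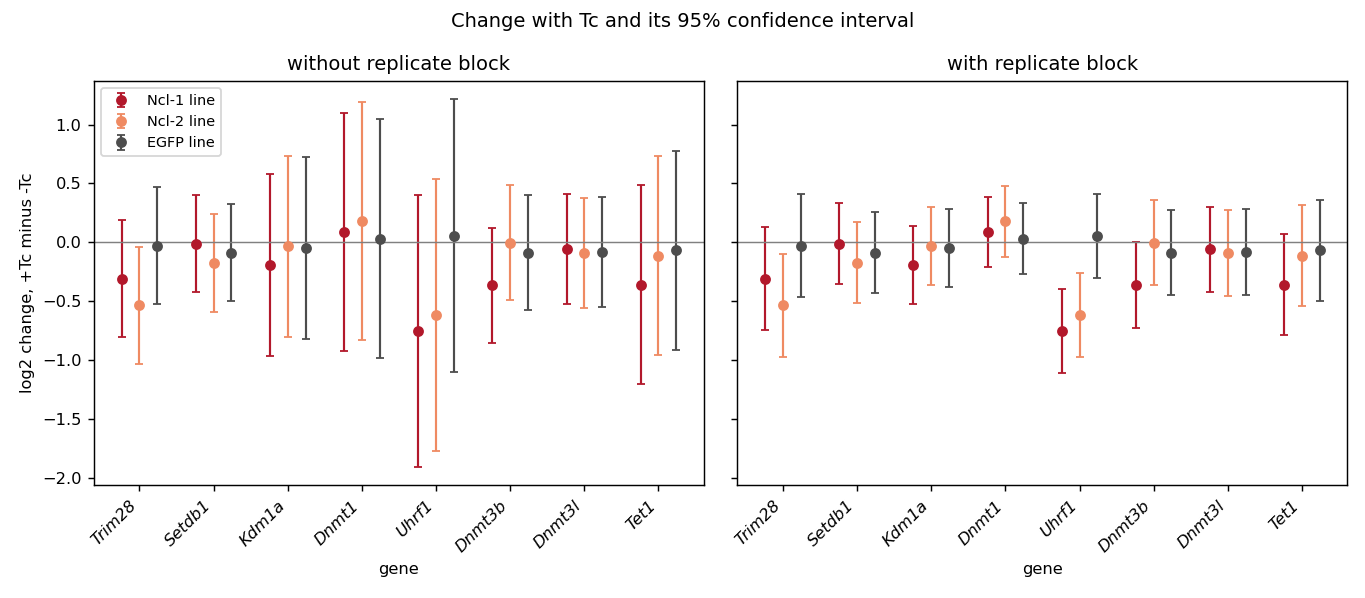
Log2 change with Tc (y axis) of the 8 tested genes (x axis) in the Ncl-1, Ncl-2 and EGFP lines, with 95% confidence intervals from the plain limma fit (left) and the blocked one (right), 3 arrays per group. With the block the Uhrf1 intervals of both nucleolin lines lie below 0, -1.11 to -0.39 and -0.98 to -0.26, as does that of Trim28 in the Ncl-2 line in both fits.

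Among the silencing factors, Trim28 (Entrez Gene 21849) had its lowest mean in the Ncl-2 +Tc group. Its log2 signals there were 14.07, 14.06 and 13.98, against 14.71, 14.10 and 14.91 in Ncl-2 -Tc cells, and these groups did not overlap. Trim28 was the only tested regulator with separate groups in this line, where 24% of all genes were separate, and in the Ncl-1 line 0 of 8 were, against 22.6%. Ncl-1 +Tc cells had 14.65, 14.55 and 14.01, against 14.80, 14.46 and 14.87 in Ncl-1 -Tc cells, an overlap. EGFP +Tc cells had 14.46, 14.32 and 14.43, against 14.48, 14.54 and 14.29 in EGFP -Tc cells, and 0 of 8 genes were separate in that line, against 1.85% of all genes.

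The change of Trim28 in the Ncl-2 line was -0.54 ± 0.23, with an unadjusted p of 0.0362 and a limma adjusted p of 0.233, and it was not called. The pairs differed by -0.64, -0.03 and -0.93. With the block the adjusted p was 0.0686, and among the fits that left out 1 array it was below the threshold only without Ncl-1 +Tc replicate 3 (0.0399) or without Ncl-2 -Tc replicate 2 (0.0188), where the change was -0.77. Without Ncl-2 -Tc replicate 3 the blocked change was -0.33 (adjusted p = 0.314), without replicate 3 of all groups it was -0.34 (0.257), and with array weights in place of the block it was -0.04 (0.730). In the Ncl-1 line the change was -0.31 ± 0.23 (adjusted p = 0.609), with pair differences of -0.16, 0.09 and -0.86, and the mean of the first and second pair was -0.03. The Ncl-1 minus the Ncl-2 change was 0.23 ± 0.33 (adjusted p = 1.00). Over all 8 regulators no difference between the Ncl-1 and Ncl-2 changes was called in either fit, where 0% of all genes were called.

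Setdb1 (Entrez Gene 84505) and Kdm1a (Entrez Gene 99982) had differences smaller than the spread of their arrays. Setdb1 differed by -0.01 ± 0.19 in the Ncl-1 line and -0.17 ± 0.19 in the Ncl-2 line, beside -0.09 in the EGFP line (limma adjusted p = 0.995, 0.795 and 1.00). Its log2 signals ran from 9.46 to 10.15 on the 6 induced nucleolin arrays and from 9.74 to 10.09 on the 6 uninduced ones. Kdm1a differed by -0.19 ± 0.36, -0.03 ± 0.36 and -0.05 ± 0.36 in the Ncl-1, Ncl-2 and EGFP lines. With the block its interval was -0.52 to 0.14 in the Ncl-1 line and -0.37 to 0.30 in the Ncl-2 line. For both genes 3 of 6 nucleolin pairs were higher and 3 lower with Tc.

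**Figure D3:**
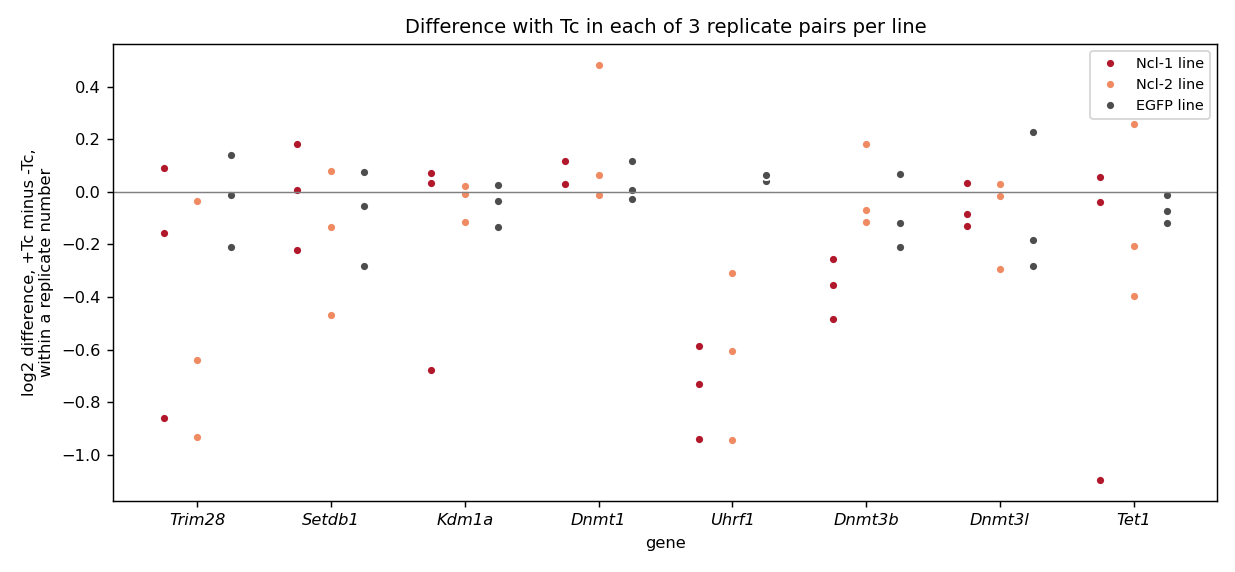
Log2 difference between the +Tc and the -Tc array of each replicate number (y axis) for the 8 tested genes (x axis), with 3 pairs for each of the Ncl-1, Ncl-2 and EGFP lines. All 6 Uhrf1 pairs of the nucleolin lines lie between -0.94 and -0.31, while the low Tet1 point of the Ncl-1 line, -1.10, is replicate 3 alone.

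The de novo methylation genes split by detection. Dnmt3a had 3 probes, and none was above background on any of the 18 arrays, so no level or change can be given for it. Dnmt3b (Entrez Gene 13436) was detected on all arrays by 2 probes. Its brighter probe had log2 signals of 13.13, 12.82 and 12.86 in Ncl-1 +Tc cells, against 13.62, 13.18 and 13.11 in Ncl-1 -Tc cells. The 3 pairs were all lower with Tc, with differences of -0.48, -0.35 and -0.25, but the groups overlapped. The change was -0.36 ± 0.23 (limma adjusted p = 0.494, and 0.139 with the block). The same probe differed by -0.00 ± 0.23 in the Ncl-2 line, where the pairs were 0.18, -0.12 and -0.07, and by -0.09 in the EGFP line.

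The dimmer Dnmt3b probe gave a lower value than the brighter one in the Ncl-2 line. Its difference was -0.44 ± 0.23 in Ncl-1 cells (limma adjusted p = 0.360), with groups that did not overlap, -0.32 ± 0.23 in the Ncl-2 line (adjusted p = 0.569) and 0.17 in the EGFP line. Neither probe was called in any line, with or without the block. Dnmt3l (Entrez Gene 54427), the cofactor typical of germ cells and embryonic stem cells, differed by -0.06, -0.09 and -0.08 in the Ncl-1, Ncl-2 and EGFP lines, each ± 0.22. Its second probe gave -0.04, -0.13 and -0.09.

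Tet1 (Entrez Gene 52463), the main methylcytosine dioxygenase of embryonic stem cells, was measured by 1 probe. Its log2 signals were 13.07, 13.23 and 11.79 in Ncl-1 +Tc cells, against 13.11, 13.17 and 12.88 in Ncl-1 -Tc cells, so 1 array was low. In the Ncl-2 line they were 12.67, 13.34 and 12.06 with Tc, against 13.07, 13.08 and 12.27 without it. The changes were -0.36 ± 0.40 and -0.11 ± 0.40 (limma adjusted p = 0.788 and 0.967), and -0.07 in the EGFP line. In the Ncl-1 line the pairs differed by -0.04, 0.05 and -1.10. Replicate 3 was the lowest in each of the 6 groups, at -1.36 to -0.26 from the mean of the other replicates, the opposite of its place for Uhrf1, Dnmt1 and Kdm1a.

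The uninduced lines were compared to see where the lines differed before any siRNA was induced. No regulator was called between Ncl-1 -Tc and EGFP -Tc cells (0 of 8, background 0.824%) or between Ncl-2 -Tc and EGFP -Tc cells (0 of 8, background 0.796%), and none had an unadjusted p below 0.05. With the block the counts were also 0 of 8, against 8.01% and 11.1% of all genes. Dnmt3l had 14.60, 14.35 and 14.34 in Ncl-1 -Tc cells and 14.76, 14.48 and 14.16 in Ncl-2 -Tc cells, against 14.12, 13.97 and 13.95 in EGFP -Tc cells. It was higher in both, by 0.42 ± 0.22 (limma adjusted p = 0.702, and 0.166 with the block) and 0.45 ± 0.22 (adjusted p = 0.541, and 0.106 with the block), without reaching the threshold. The groups did not overlap for 3 of 8 genes in the Ncl-1 line, Setdb1 (0.35), Dnmt3b (0.43) and Dnmt3l, each higher than in EGFP -Tc cells, where 13.8% of all genes had separate groups. That count is above this share, but rests on 3 genes of which none was called. In the Ncl-2 line Dnmt3l alone was separate, where 16.5% of all genes were. The dimmer Dnmt3b probe differed by 0.53 ± 0.23 in Ncl-1 -Tc cells (unadjusted p = 0.0338, limma adjusted p = 0.496), and the second Dnmt3l probe by 0.42 and 0.47 in Ncl-1 -Tc and Ncl-2 -Tc cells. For the second Dnmt3l probe the Ncl-1 -Tc and EGFP -Tc groups overlapped (lowest 14.09 against highest 14.13). For the dimmer Dnmt3b probe they did not. These comparisons share the EGFP -Tc arrays. Markers of primitive endoderm differed in the same comparisons, their summed signal being 309 to 464 in Ncl-1 -Tc and 234 to 376 in Ncl-2 -Tc cells, against 544 to 1262 in EGFP -Tc cells, with medians of -1.08 and -1.59 over 4 measured genes. Of these 4, Dab2 was called lower in Ncl-2 -Tc cells (-2.18 ± 0.40, limma adjusted p = 0.0232), a call lost without replicate 1 or 2 of EGFP -Tc or any Ncl-2 -Tc array (up to 0.112). With the block Dab2 was also lower in Ncl-1 -Tc cells (-1.58) and Gata6 in Ncl-2 -Tc cells (-2.04). Sox7, another of the 4, had means of 6.68 in Ncl-1 -Tc and 6.78 in Ncl-2 -Tc cells, beside 6.67 in EGFP -Tc cells. Naive pluripotency genes had medians of 0.30 and 0.23 over 14 measured genes. With the block 2 of them, Klf5 and Tfcp2l1, were higher in Ncl-1 -Tc cells and 3, Klf4 added, in Ncl-2 -Tc cells. The part of primitive endoderm or other cells in the differences between uninduced lines, here and for the partner and target genes below, was not tested.

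**Figure D4:**
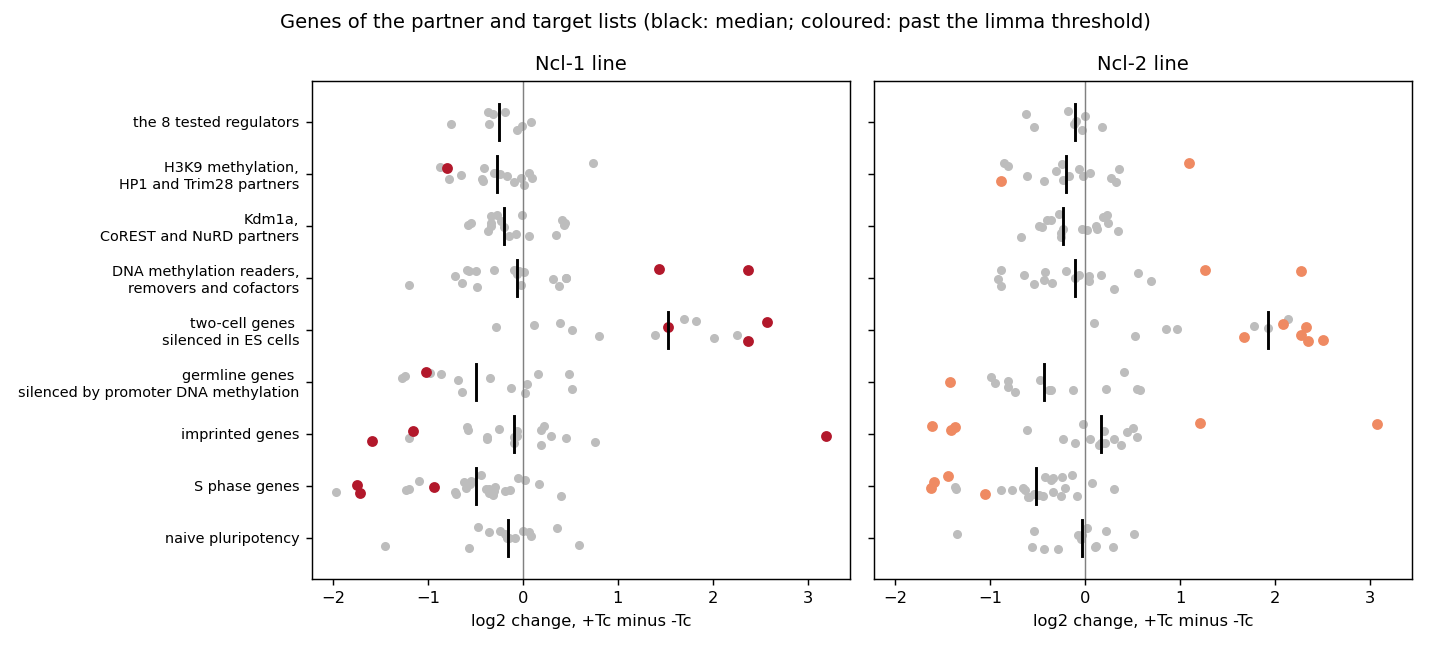
Log2 change with Tc (x axis) in the Ncl-1 line (left) and the Ncl-2 line (right) for the 8 tested regulators and for the measured genes of each partner or target list (rows). Each point is a gene, coloured where the plain limma fit called it, and black bars are list medians. The 8 regulators hold no coloured point, and the two-cell genes have medians of 1.53 and 1.93.

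Partners of the regulators were read from lists of genes that act with them. Of all genes, 4.81% rose and 2.23% fell in the Ncl-1 line and 5.25% rose and 2.7% fell in the Ncl-2 line, and with the block 13.7% and 11.5%, and 13.5% and 12.4%. No gene of any list below was called in the EGFP line. Of 16 measured genes of H3 lysine 9 methylation, HP1 and Trim28 recruitment, 0 rose and 1 fell in the Ncl-1 line, and 1 rose and 1 fell in the Ncl-2 line (1 and 2, and 1 and 4, with the block), with medians of -0.27 and -0.20. The other genes lower with the block were Chaf1b in both lines (-0.87 and -0.81), a chromatin assembly subunit, and Cbx5 (-0.61), HP1 alpha, and Ehmt2 (-0.85), the methyltransferase G9a, in the Ncl-2 line. Cbx3, the HP1 protein gamma, fell to 9.47, 9.73 and 9.70 in Ncl-1 +Tc cells, against 10.23, 10.68 and 10.40 in Ncl-1 -Tc cells, a change of -0.80 ± 0.22 (limma adjusted p = 0.0430, and 0.00318 with the block). In the Ncl-2 line it changed by -0.89 ± 0.22 (adjusted p = 0.0224). Cbx3 was already lower in the uninduced lines than in EGFP -Tc cells. The difference was -1.06 ± 0.22 for Ncl-1 -Tc (adjusted p = 0.0381, and 0.00179 with the block). It was -0.97 ± 0.22 for Ncl-2 -Tc (0.0569, and 0.00252 with the block). With the block Smarcad1, of the same list, was also lower in both uninduced lines (-1.05 and -1.38). In Ncl-2 -Tc cells Atf7ip (-0.80) and Morc3 (-1.14) were lower too, and H3f3a was higher (0.48). Zfp809, a KRAB zinc finger protein that brings Trim28 to retroviral DNA, rose by 1.10 ± 0.23 in the Ncl-2 line (adjusted p = 0.00943) and had a change of 0.74 ± 0.23 in the Ncl-1 line (adjusted p = 0.0806, and 0.0123 with the block).

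The plain calls of these partners depended on single arrays. The Cbx3 call in the Ncl-1 line was lost without any 1 of 14 arrays, all but Ncl-2 -Tc replicate 1 and the 3 Ncl-2 +Tc arrays (adjusted p up to 0.182). That in the Ncl-2 line was lost without replicate 2 or 3 of Ncl-2 -Tc or replicate 1 or 3 of Ncl-2 +Tc (up to 0.117), and its call between Ncl-1 -Tc and EGFP -Tc cells without any 1 of 12 arrays (up to 0.186), which were the 6 EGFP arrays, the 3 Ncl-1 -Tc arrays, Ncl-1 +Tc replicate 2 and Ncl-2 -Tc replicates 2 and 3. The Zfp809 call was lost without Ncl-2 +Tc replicate 1 (0.0583). Of 17 measured Kdm1a, CoREST and NuRD partners, 0 were called in either line (with the block 1 lower in each, Rcor1 at -0.58 in the Ncl-1 line and Mbd3 at -0.67 in the Ncl-2 line), with medians of -0.20 and -0.23. Gse1, a CoREST-associated protein, had 0.44 and 0.24, and Mta3, a NuRD subunit, had 0.42 and 0.35.

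Of 19 measured readers, removers and cofactors of DNA methylation, 2 rose and 0 fell in each nucleolin line (2 lower in the Ncl-1 line and 4 in the Ncl-2 line with the block), with medians of -0.06 and -0.11. Lower with the block were Pcna, the replication clamp to which Dnmt1 binds (-1.20 and -0.88, limma adjusted p = 0.00196 and 0.0136 with the block; also an S phase gene below), and Cdca7, a partner of the remodeller Hells (-0.64 in each line, adjusted p = 0.0194 and 0.0184 with the block), and, in the Ncl-2 line, Mbd2 (-0.92) and Apex1 (-0.89). Dppa3, a maternal factor that binds Uhrf1 and holds it away from chromatin, rose to 8.72, 8.14 and 9.54 in Ncl-1 +Tc cells, against 6.71, 6.47 and 6.11 in Ncl-1 -Tc cells. It rose to 10.05, 9.48 and 8.64 in Ncl-2 +Tc cells, against 7.56, 7.56 and 6.22 in Ncl-2 -Tc cells. The changes were 2.37 ± 0.43 (limma adjusted p = 0.00375) and 2.28 ± 0.43 (adjusted p = 0.00460), and both calls held without each of the 18 arrays in turn. EGFP +Tc cells had 9.25, 9.54 and 9.65, against 9.84, 9.09 and 9.51 in EGFP -Tc cells, with a change of -0.00. Before induction Dppa3 was lower than in EGFP -Tc cells, with a difference of -3.05 ± 0.43 in Ncl-1 -Tc cells (adjusted p = 0.00574) and of -2.37 ± 0.43 in Ncl-2 -Tc cells (adjusted p = 0.0222). The signals of the induced nucleolin arrays, 8.14 to 10.05, overlapped those of the EGFP line. The Ncl-2 -Tc difference was not called without replicate 1, 2 or 3 of EGFP -Tc or replicate 2 or 3 of Ncl-2 -Tc (up to 0.105). Xrcc1, a scaffold of base excision repair, rose by 1.43 ± 0.29 (adjusted p = 0.00770) and 1.27 ± 0.29 (adjusted p = 0.0157), and the Ncl-2 call was lost without Ncl-2 +Tc replicate 2 or either of Ncl-2 -Tc replicates 2 and 3 (up to 0.0737). Without Ncl-2 +Tc replicate 3, 1 gene of the list was called lower in the Ncl-2 line.

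Uhrf1 and Dnmt1 were also set beside genes of the S phase. Of 26 measured, 0 rose and 3 fell in the Ncl-1 line and 0 rose and 4 fell in the Ncl-2 line, with medians of -0.49 and -0.51 beside -0.04 and -0.05 over all genes, and 10 and 13 fell with the block. The count of 4 was 2 without Ncl-2 +Tc replicate 3 or either of Ncl-2 -Tc replicates 1 and 2. Ccne1, which encodes cyclin E1, changed by -1.74 ± 0.30 in Ncl-1 cells (limma adjusted p = 0.00283) and by -1.62 ± 0.30 in Ncl-2 cells (adjusted p = 0.00405), and both calls held without each of the 18 arrays. Pola2, a subunit of DNA polymerase alpha, changed by -0.94 ± 0.20 (adjusted p = 0.0103, not called without Ncl-1 -Tc replicate 3, 0.0509) and -1.05 ± 0.20 (adjusted p = 0.00432). Ccne2, cyclin E2, changed by -1.72 ± 0.37 (adjusted p = 0.0118, up to 0.0619 without replicate 2 of Ncl-1 -Tc or replicate 3 of Ncl-1 +Tc) and -1.59 ± 0.37 (adjusted p = 0.0173, up to 0.0956 without the same 3 arrays that moved the count). Tk1, thymidine kinase, had -1.23 in the Ncl-1 line (adjusted p = 0.0789, and 0.000191 with the block) and fell in the Ncl-2 line, a change of -1.45 ± 0.38 (adjusted p = 0.0335), a call lost without any 1 of the 6 Ncl-2 arrays (up to 0.126). Uninduced, Tk1 was lower in Ncl-1 -Tc than in EGFP -Tc cells with the block (-0.70, adjusted p = 0.0306, and 0.743 without it). The E2F letters were found before the start of 5 of 23 S phase genes with a listed promoter, Mcm5, Mcm6, Pola1, Rfc3 and Orc1. None of these 5 was called in the plain fit, and only Rfc3 with the block, in the Ncl-2 line (-0.63). The promoters of Ccne1, Pola2 and Tk1 held no match. The part of a change in cell cycle phase in the Uhrf1 difference was not tested.

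Genes of groups that these regulators are known to help silence were read from 3 further lists. Of those with a probe, 13 of 17 two-cell, 14 of 24 germline and 19 of 26 imprinted genes were measured. A measured gene was detected on all arrays of at least 1 group, so members silent in every group are left out. Of 13 measured two-cell genes, a group known to depend on Trim28, Setdb1 and Kdm1a for silencing, 3 rose and 0 fell in the Ncl-1 line. In the Ncl-2 line 6 rose and 0 fell. With the block 8 rose in the Ncl-1 line and 10 in the Ncl-2 line. Dppa3 is counted among them, though it was not silent in the control line. Its mean was 9.48 in EGFP -Tc cells, beside 6.43 for Tcstv1 and 4.55 for Tdpoz4. Tcstv1 rose by 2.57 ± 0.66 and 2.50 ± 0.66 in the Ncl-1 and Ncl-2 lines (limma adjusted p = 0.0320 and 0.0334), and Tdpoz2 by 1.53 ± 0.43 and 2.09 ± 0.43 (adjusted p = 0.0487 and 0.00762). Tdpoz4 rose by 2.33 ± 0.52 in the Ncl-2 line (adjusted p = 0.0132) and had 1.70 ± 0.52 in the Ncl-1 line (adjusted p = 0.0741, and 0.00840 with the block). The Tdpoz4 probe was detected on 0 of 3 arrays in each EGFP group and on 1 of 3 in each uninduced nucleolin group. It was detected on 3 of 3 in each induced nucleolin group, and passed the filter through these alone. Its place in the counts above is therefore no test of direction. Of these calls, that of Tdpoz2 in the Ncl-2 line held without each of the 18 arrays. The Ncl-2 call of Tcstv1 was lost without any 1 of the 6 Ncl-2 arrays and its Ncl-1 call without replicate 1 or 2 of Ncl-1 -Tc or replicate 1 or 3 of Ncl-1 +Tc. That of Tdpoz4 was lost without replicate 2 of Ncl-2 -Tc or replicate 1 of Ncl-2 +Tc, and the Ncl-1 call of Tdpoz2 without any 1 of 15 arrays, all but Ncl-1 +Tc replicate 2 and Ncl-2 +Tc replicates 1 and 3. The count of 3 lay between 1 and 6 when any 1 of the 6 Ncl-1 arrays was left out, and the count of 6 was 2 without replicate 2 of Ncl-2 -Tc or replicate 1 of Ncl-2 +Tc and 3 without Ncl-2 -Tc replicate 3. For the nucleolin minus the EGFP change 1 of 13, Dppa3, was called in the plain fit (2.33 ± 0.53, adjusted p = 0.0310). Of all genes, 2.76% were called there in either direction. With the block 8 were called higher. The share of all genes called higher in that fit is not given here, so this count has no background beside it. Tcstv1 had 2.46, Tdpoz2 1.48 and Tdpoz4 2.03 (adjusted p = 0.167, 0.213 and 0.135, and 0.0131, 0.0468 and 0.0163 with the block). The plain count of 1 was 0 without any 1 of the 6 EGFP arrays, replicate 2 of Ncl-1 -Tc, replicate 1 of Ncl-1 +Tc or replicate 1 or 2 of Ncl-2 +Tc. It was 2 without replicate 3 of Ncl-1 -Tc or replicate 2 of Ncl-1 +Tc. Between the uninduced lines the 13 genes had medians of 0.39 in Ncl-1 -Tc and 0.58 in Ncl-2 -Tc against EGFP -Tc cells. Zscan4c was higher in Ncl-2 -Tc cells by 3.04 ± 0.63 (adjusted p = 0.0382). In the blocked fit 4 of 13 were higher there, Zscan4c, Tcstv1, Tcstv3 and Tmem92, and 1, Zscan4c, in Ncl-1 -Tc cells (2.39), with Dppa3 lower in both. The plain call of Zscan4c was lost without any 1 of 9 arrays, the 3 of EGFP -Tc, replicates 1 and 2 of EGFP +Tc and of Ncl-2 -Tc, Ncl-1 +Tc replicate 1 and Ncl-2 +Tc replicate 2 (up to 0.165). These genes were chosen with their rise in these arrays known, so their direction is no independent evidence. Of 14 measured germline genes that promoter methylation silences, 0 rose and 1, Mov10l1, fell in each line (7 and 5 lower, 1 and 0 higher, with the block), with medians of -0.50 and -0.43. Mov10l1, a helicase of the piRNA pathway, changed by -1.02 ± 0.26 in Ncl-1 cells (limma adjusted p = 0.0269) and -1.42 ± 0.26 in Ncl-2 cells (adjusted p = 0.00309). Leaving out any Ncl-1 -Tc array or Ncl-1 +Tc replicate 3 ended the Ncl-1 call (up to 0.126). Before induction Mov10l1 was higher than in EGFP -Tc cells with the block, by 0.80 in Ncl-1 -Tc (adjusted p = 0.0192, and 0.231 without the block) and 0.79 in Ncl-2 -Tc cells (adjusted p = 0.0167, and 0.210 without it). Its mean was 6.84 in Ncl-1 +Tc cells, beside 7.06 in EGFP -Tc cells, and it was detected on all 3 arrays of each of the 6 groups. The nucleolin minus the EGFP change was -1.16 ± 0.31 (adjusted p = 0.0741, and 0.00436 with the block).

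Of 19 measured imprinted genes, whose alleles differ in methylation, 1 rose and 2 fell in the Ncl-1 line, and 2 rose and 3 fell in the Ncl-2 line (2 and 4 in each with the block), with medians of -0.10 and 0.17. Grb10, a growth factor receptor adaptor, had log2 signals of 11.75, 12.04 and 11.58 in Ncl-1 +Tc cells, against 13.06, 13.40 and 13.66 in Ncl-1 -Tc cells, and fell by 1.58 ± 0.23 on the log2 scale (limma adjusted p = 0.000688). It fell by 1.61 ± 0.23 in the Ncl-2 line (adjusted p = 0.000646), and both calls held without each of the 18 arrays. Like Dppa3, Grb10 differed between the lines before induction, here in the other direction. It was higher by 1.51 ± 0.23 in Ncl-1 -Tc than in EGFP -Tc cells (adjusted p = 0.00849) and by 1.35 ± 0.23 in Ncl-2 -Tc cells (adjusted p = 0.0150, not called without replicate 1, 2 or 3 of EGFP -Tc or replicate 2 or 3 of Ncl-2 -Tc, up to 0.0870). Igf2, a fetal growth factor, rose by 3.19 ± 0.82 in Ncl-1 cells and 3.07 ± 0.82 in Ncl-2 cells (adjusted p = 0.0312 and 0.0344), Phlda2, a placental growth regulator, changed by -1.16 ± 0.31 and -1.41 ± 0.31 (adjusted p = 0.0394 and 0.0124), and Ascl2, a trophoblast transcription factor, rose by 1.21 ± 0.27 in the Ncl-2 line (adjusted p = 0.0128) and had 0.76 in the Ncl-1 line (adjusted p = 0.127, and 0.0350 with the block). Each of these calls was lost without single arrays. In the Ncl-1 line that of Igf2 was lost without replicate 1 or 2 of Ncl-1 -Tc or replicate 1 or 3 of Ncl-1 +Tc, and that of Phlda2 without any 1 of 8 arrays, namely replicate 1 of either EGFP group, Ncl-1 -Tc replicate 1 or 2, any Ncl-1 +Tc array or Ncl-2 -Tc replicate 2. In the Ncl-2 line Igf2 was not called without replicate 2 or 3 of Ncl-2 -Tc or replicate 1 or 2 of Ncl-2 +Tc, Phlda2 not without replicate 1 or 2 of Ncl-2 -Tc or replicate 3 of Ncl-2 +Tc, and Ascl2 not without replicate 1 of either Ncl-2 group. The counts then lay between 0 and 2 higher and between 1 and 3 lower over both lines. For the nucleolin minus the EGFP change Grb10 was called in the plain fit (-1.50 ± 0.28, limma adjusted p = 0.0110). Igf2 was called in neither fit (2.99 ± 1.00, adjusted p = 0.175, and 0.0505 with the block). Phlda2 (-1.34, adjusted p = 0.0918) and Ascl2 (1.05, 0.133) were called with the block alone (0.00156 and 0.0310). The Igf2 signals were 9.41, 8.56 and 12.13 in Ncl-1 +Tc and 12.25, 11.14 and 9.53 in Ncl-2 +Tc cells.

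The cell type of the samples was read from markers. All 9 embryonic stem cell markers, Pou5f1, Sox2 and Nanog among them, were detected on 18 of 18 arrays, and 0 of 9 were called in either nucleolin line. With the block Sox2 was called higher in both, at 0.80 (limma adjusted p = 0.00532) and 0.60 (adjusted p = 0.0271), and Pou5f1 was called lower in the Ncl-2 line (-0.53, adjusted p = 0.0478). Of 14 measured naive pluripotency genes 0 were called in either line (with the block 1 lower in each, Tcl1, at -1.45 and -1.35). Zfp42 had -0.24 and -0.43. The endoderm gene Foxa2, the fibroblast genes Lum and Dcn and the epiblast genes Fgf5 and Sox3 were detected on 0 arrays, Gata4, Elf5 and Col3a1 on 1 array each. Of 7 primitive endoderm, 6 trophectoderm, 7 fibroblast and 6 epiblast markers, 4, 2, 1 and 3 were measured, and 1 of these, the epiblast gene Lef1, was called with Tc in a nucleolin line (-1.38 in Ncl-1 cells, limma adjusted p = 0.00602). With the block Gata6 (1.85), Sox7 (-1.47) and Lef1 (-0.70) were also called with Tc in the Ncl-2 line. Lef1 was detected on 1 of 3 Ncl-1 +Tc, 2 of 3 Ncl-2 -Tc and 0 of 3 Ncl-2 +Tc arrays. Sox7 was detected on 1 of 3 Ncl-2 +Tc arrays. The lower values of both genes thus lay near background, which limits the size of these changes. Uninduced, Lef1 was lower in Ncl-2 -Tc than in EGFP -Tc cells with the block (-1.15, adjusted p = 0.00217, and 0.0650 without it). The summed signal of the 2 measured trophectoderm markers, Krt8 and Krt18, ran from 160 to 1540 on the induced nucleolin arrays and from 340 to 720 on the uninduced ones, beside 497 to 706 in EGFP +Tc and 463 to 764 in EGFP -Tc cells. The sum of 4 primitive endoderm markers ran from 294 to 576 and from 234 to 464, that of 3 epiblast markers from 1633 to 4892 and from 1495 to 3618, and the 1 fibroblast marker, Thy1, from 297 to 823 and from 409 to 1184, on the induced and the uninduced nucleolin arrays in this order. The part of other cell types in the differences above was not tested.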

How the data were processed

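The authors deposited probe-level intensity values without normalization across arrays, together with a detection p-value for each, plus a second, normalized intensity table that served here only as an alternative. Per the submitters' processing notes, GenomeStudio 2010.1 was used. Its background option was not stated in the sources used here, but the deposited values include negative ones, as after a subtraction of background. A Dnmt3a probe, for example, went down to -25.1. The background step below was therefore applied to values of which some already lay below 0. RNA was extracted with Trizol and amplified to biotinylated cRNA, per the labels' protocols.

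Starting from the unnormalized values, limma 3.58.1 under R 4.3.3 removed background by normexp (offset 16, negative-control levels inferred through the detection p-values), equalised the arrays by quantiles and took log2. Probes with a detection p under 0.05 on all 3 arrays of at least 1 group were kept (19154 of 45281). Between 40.0% and 46.4% of probes were detected per array. Precision is limited by the number of arrays. A gene was represented by its brightest kept probe (10557 genes); symbols came from the platform annotation, which gave 34885 probes 1 symbol, 18 several and 10378 none. No 2 arrays held identical values.

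One limma model with 6 group means was fitted to all 18 arrays, with two-sided tests and Benjamini-Hochberg adjustment over all kept probes. The replicate number served as a block in an alternative fit, because same-numbered arrays deviated together (r from 0.372 to 0.957 in 45 pairs, median 0.746, against a median of -0.45 in 90 pairs of other numbers). Where same-numbered arrays deviate together, centring each group on its own mean pushes pairs of other numbers below 0. The median of -0.45 is therefore no separate support. Genes were named by rule: Ncl, all 10 regulators, and from each list up to 4 genes called in a nucleolin line, by smallest p for the difference from the EGFP change (2 where none was called); Sox3, Foxa2 and the other undetected markers were named for their detection, and Dab2, Zscan4c and genes called with the block alone after their values were seen. The members, lists and tests were chosen with earlier results of these data known. Other alternatives changed the background correction, normalization, detection filter, probe choice, array weights and arrays used.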

Additional observations from a re-analysis of the deposited data

Results flagged for a closer look

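Uhrf1 was marked because its response to Tc went opposite ways in the nucleolin lines and in the EGFP line, with +Tc lower in 6 of 6 pairs of the nucleolin lines and higher in 3 of 3 EGFP pairs. The difference between the responses was tested. It was -0.74 ± 0.67 (SE, limma adjusted p = 0.897), and with the replicate block -0.74 ± 0.21 (adjusted p = 0.0274). The EGFP pairs were higher by only 0.04 to 0.07.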

How the results depend on the processing

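With the replicate block the count of called regulators was 1 in the Ncl-1 line, 1 in the Ncl-2 line and 1 for the nucleolin minus EGFP response, in place of 0 each, and the block changed no other count of regulators. Leaving out 1 array at a time gave 0 to 0 in every comparison without the block, and with it 1 to 1 in the Ncl-1 line, 1 to 2 in the Ncl-2 line, 0 to 1 for the nucleolin minus EGFP response and 0 to 0 in the others. With the block and replicates 1 and 2 only (chosen after seeing the data, as was leaving arrays out under the block) the counts were 1, 1 and 0. Array weights gave 2 in the Ncl-1 line (Uhrf1 and Dnmt3b, lower) and 2 in the Ncl-2 line (Uhrf1 and Dnmt3l, lower). They gave 1 for the nucleolin minus EGFP response (Uhrf1). Against EGFP -Tc they gave 2 for Ncl-1 -Tc (Setdb1 and Dnmt1, higher). For Ncl-2 -Tc they gave 3, Uhrf1 and Dnmt3l higher and Trim28 lower (-0.39, beside 0.14 in the plain fit). The share of all genes called with these weights was not taken, so the counts have no background beside them. The weights put 80.2 on 1 array, Ncl-2 -Tc replicate 2, in an estimation that stopped before reaching its tolerance. The cause of these moves was not tested. The other alternatives, which changed the background correction, normalization, filter, probe or arrays or used the authors' normalized table, left every count at 0.

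Of 1224 values of single genes under 51 alternatives, 1174 were unchanged, 45 passed the threshold and 5 moved by more than the replicate spread. Those 5 came from replicate 3 alone, which had no test. Unchanged meant staying on the same side of the threshold or, for 19 values from replicate 3 alone, lying within the replicate spread. None of the 1224 was called to begin with, and 81 changed sign. Uhrf1 stayed below 0 in both nucleolin lines in every alternative, between -1.11 and -0.30. Median scaling moved the median of all genes to -0.13 in the Ncl-2 line and -0.14 in the EGFP line.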
